A study of Mus musculus with 2 samples.

Results

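T cells carrying messenger RNA for Il2ra, the alpha chain of the interleukin-2 receptor (CD25), and none detected for Foxp3 were described in single-cell transcriptomes of the spleen of LatY136F mice with and without CD45. They were taken as CD3-positive cells (at least 1 unique molecular identifier, UMI, of Trac, Cd3e and Cd3g together) with at least 1 UMI of Il2ra and no UMI of Foxp3, the transcription factor of regulatory T cells. This rule found 896 of 13640 CD3-positive cells in the LatY136F library (6.57%, exact Clopper-Pearson 95% interval 6.16 to 7.0%) and 372 of 12645 in the CD45-KO library (2.94%, 2.65 to 3.25%). The cells were thus selected on the measured UMIs of Il2ra and Foxp3, and values of these genes are given as a description only. Each of these Il2ra-positive cells was set beside 1 CD3-positive cell of the same library with neither gene and nearly the same number of UMIs. These partners are called matched cells below.

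The study compared T cells of mice aged 8 to 9 weeks, with 1 library per genotype. Both genotypes carry the LatY136F mutation, and cells of the other genotype, LatY136F_CD45-KO (CD45-KO below), lack CD45 besides. Sorting was on CD3 and CD5, the cells were captured on the BD Rhapsody system. The labels do not say how many mice were used. With 1 library per genotype no test was possible, genotype and capture cannot be told apart, and all intervals cover counting error only, not differences between mice.

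CD25 raises the affinity of the receptor formed by the beta chain (Il2rb) and the common gamma chain (Il2rg), whose signal runs through the kinases JAK1 and JAK3 to STAT5. In conventional T cells CD25 is induced by antigen receptor signals and sustained by interleukin-2 itself, while regulatory T cells carry it constantly. LAT is the adaptor that couples the T cell receptor to phospholipase C gamma; the Y136F mutation removes that docking site and is known to give a T helper 2-type lymphoproliferation. CD45, encoded by Ptprc, is the phosphatase that keeps the kinases Lck and Fyn ready for T cell receptor signals.

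The libraries held 35300371 UMIs in 13775 cells (LatY136F) and 29268453 UMIs in 12845 cells (CD45-KO), and 223 cell indices occurred in both. Among matched pairs, the T cell markers summed to 7957 CPM (UMIs of a gene scaled to a fixed total) in Il2ra-positive cells and 8176 CPM in matched cells of LatY136F, and to 6711 and 6198 CPM in CD45-KO, where Cd8a was at 0 in Il2ra-positive cells. Cd4 without Cd8 was seen in 74.8% of Il2ra-positive and 78.4% of matched cells of LatY136F, and in 71.8% and 73.7% in CD45-KO. Markers of B and plasma cells were lower in Il2ra-positive than in matched cells of both libraries. B cell markers summed to 4.93 against 20.6 CPM in LatY136F and 2.96 against 113 CPM in CD45-KO, and plasma cell markers to 124 against 288 and 93.9 against 1635 CPM. Other marker sums had no common direction: myeloid markers were at 274 against 244 CPM in LatY136F and 195 against 864 CPM in CD45-KO, and NK cell markers at 166 against 98.9 and 40.7 against 122 CPM. Markers of group 2 innate lymphoid cells were at 43.3 against 36.4 and 48.1 against 28.2 CPM. The part of such cells in the results below was not tested, other than by leaving out cells with other-lineage markers. Doublets were not called and were kept. Ptprc, the gene named in the knockout label, was at 1375 CPM over all Il2ra-positive cells of LatY136F and 955 CPM over those of CD45-KO. Which part of the gene was deleted is not known here, and the value therefore checks nothing.

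The first question was how many T cells carried the receptor message. Most of the Il2ra-positive cells lay just inside the threshold: 567 of the 896 in LatY136F (63.3%) and 269 of the 372 in CD45-KO (72.3%) had a single Il2ra UMI. At least 2 UMIs were counted in 329 and 103 cells, at least 5 in 71 and 25 cells, and the highest values were 29 and 25 UMIs in a cell. Just outside the threshold, 12646 and 12244 CD3-positive cells had no UMI of either gene. The Il2ra gene (ENSMUSG00000026770.5) lies on the plus strand of chromosome 2, 11642807 to 11693193 (GRCm38). Its 1924 and 708 UMIs in Il2ra-positive cells were 95.9% and 96.7% of all Il2ra UMIs of the 2 libraries.

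Depth moved with membership in both libraries. Il2ra-positive cells had a median of 3548 UMIs in LatY136F and 2439.5 in CD45-KO, against 2116 and 1989 in cells with neither gene. The share of Il2ra-positive cells among CD3-positive cells under 1500 UMIs was 1.57% in LatY136F and 1.80% in CD45-KO. From 1500 to 2500 UMIs it was 3.13% and 2.11%, and from 2500 to 5000 UMIs it was 8.93% and 3.87%. In cells of at least 5000 UMIs it reached 36% (32.7 to 39.4%) and 17.8% (14.1 to 21.9%). The shares of the 2 libraries therefore overlapped in the shallowest cells and lay apart in the deeper ones. With every cell thinned to 1000 UMIs, which left out 398 and 328 shallower cells, the shares were 2.53% (2.27 to 2.81%) and 1.38% (1.18 to 1.60%). For background, an Il2ra UMI was seen in 0 of 107 CD3-negative cells of LatY136F, which allows a share of up to 2.80% (3 counts of the total), and in 2 of 189 of CD45-KO (1.06%), at medians of 1161 and 1426 UMIs. Cycling cells, taken as those with UMIs of at least 3 of 30 cell cycle genes, held more Il2ra-positive cells than the others, at 13.3% against 4.02% in LatY136F and 6.87% against 2.35% in CD45-KO. Cycling cells were also deeper, with medians of 3040 against 1971 UMIs in LatY136F and 2883 against 1931 UMIs in CD45-KO. Among cells matched on depth the cycling share was 53.1% in Il2ra-positive and 54.5% in matched cells of LatY136F, and 30.1% and 27.9% in CD45-KO, so the gap was not seen at equal depth.

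**Figure D1:**
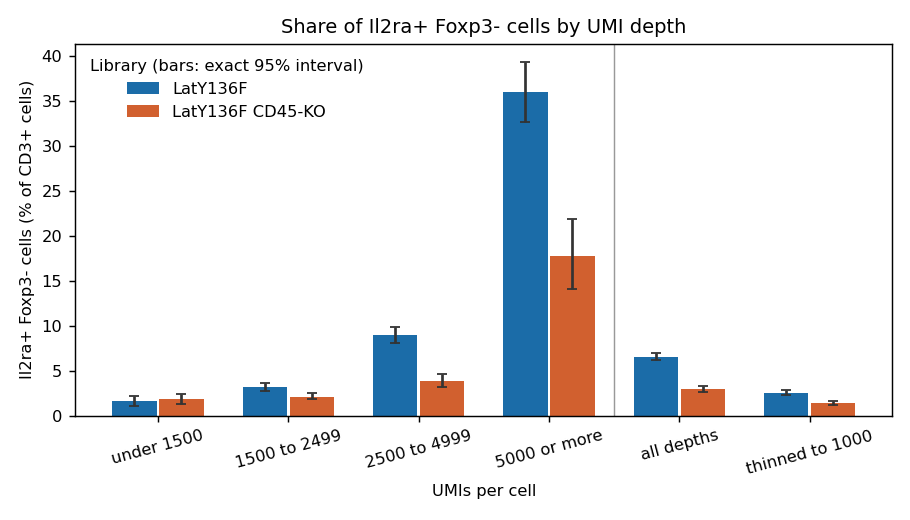
Share of Il2ra-positive Foxp3-negative cells among CD3-positive cells (y axis, percent) in 4 classes of UMIs per cell (x axis) for both libraries, with exact 95% intervals; the bars at the right give all depths and cells thinned to 1000 UMIs. The shares overlap below 1500 UMIs, at 1.57% and 1.80%, and reach 36% in LatY136F and 17.8% in CD45-KO from 5000 UMIs on.

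No Foxp3 UMI does not show that Foxp3 was absent at this depth. Foxp3 was seen in 98 CD3-positive cells of LatY136F and 29 of CD45-KO, of which 17 and 9 also had Il2ra. Among Il2ra-positive cells a Foxp3 UMI was seen in 1.86% and 2.36%, and among Il2ra-negative cells in 0.636% and 0.163%.

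For the comparison with matched cells, 846 of the 896 Il2ra-positive cells of LatY136F and 369 of the 372 of CD45-KO found a partner within 10% of their depth. The median depth of both sets was 3379.5 UMIs in LatY136F and 2423 UMIs in CD45-KO. The 50 and 3 cells without a partner were among the deepest, from 9854 to 23772 and from 19320 to 26251 UMIs. Values are CPM over the summed UMIs of each set, and log2 ratios are Il2ra-positive over matched cells with exact conditional binomial 95% intervals. Il2ra and Foxp3 were left out. A gene was counted as higher or lower at 1.5-fold or more, among genes with at least 50 UMIs over both sets. On that rule 248 of 8808 genes were higher (2.82%) and 218 lower (2.48%) in LatY136F, and 400 of 6835 were higher (5.85%) and 291 lower (4.26%) in CD45-KO. Of 6801 genes measured in both libraries, 80 were higher in LatY136F, 398 in CD45-KO and 42 in both. These 42 were 52.5% of the LatY136F list and 10.6% of the longer CD45-KO list. Of the same 6801 genes, 81 were lower in LatY136F, 264 in CD45-KO and 37 in both, which was 45.7% and 14.0% of these lists.

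The 12 genes ranked highest over both libraries were the chemokine gene Ccl1, the TNF receptor family genes Tnfrsf8 (CD30) and Tnfrsf9 (4-1BB), Mmp10, Cdkn1a, Socs2, Hdc, Il1r2, Ctla4, Ccr1, Fam213a and Il4. Promoter sequences of Il2ra and of the 5 of these genes whose promoter held a match are shown because these genes were high together. They run from 250 bases before the RefSeq start site to 50 bases from it (GRCm38.p6), 5′ to 3′ on the gene's strand. Capitals mark letters of the STAT-type motif TTCNNNGAA or of the AP-1-type motif TGANTCA, both searched on both strands. Il2ra, chr2:11642542-11642841, plus strand, had neither; Tnfrsf8, chr4:145315115-145315414, minus strand, held the AP-1-type letters; and so did Mmp10, chr9:7502092-7502391, plus strand. Tnfrsf9, chr4:150927749-150928048, plus strand, held both motifs. Il1r2, chr1:40085843-40086142, plus strand, and Il4, chr11:53617289-53617588, minus strand, held the STAT-type letters.
Il2ra: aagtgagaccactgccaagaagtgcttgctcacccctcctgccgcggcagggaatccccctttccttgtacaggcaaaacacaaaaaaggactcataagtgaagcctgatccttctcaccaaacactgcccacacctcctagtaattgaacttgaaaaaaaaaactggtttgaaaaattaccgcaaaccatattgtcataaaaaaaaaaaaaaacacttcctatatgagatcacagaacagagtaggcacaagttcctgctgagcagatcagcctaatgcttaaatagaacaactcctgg
Tnfrsf8: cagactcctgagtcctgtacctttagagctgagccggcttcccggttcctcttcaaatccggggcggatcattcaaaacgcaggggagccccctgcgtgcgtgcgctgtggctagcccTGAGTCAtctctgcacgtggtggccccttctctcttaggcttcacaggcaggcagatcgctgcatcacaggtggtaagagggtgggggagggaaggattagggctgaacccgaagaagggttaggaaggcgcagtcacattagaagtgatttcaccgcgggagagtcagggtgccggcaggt
Mmp10: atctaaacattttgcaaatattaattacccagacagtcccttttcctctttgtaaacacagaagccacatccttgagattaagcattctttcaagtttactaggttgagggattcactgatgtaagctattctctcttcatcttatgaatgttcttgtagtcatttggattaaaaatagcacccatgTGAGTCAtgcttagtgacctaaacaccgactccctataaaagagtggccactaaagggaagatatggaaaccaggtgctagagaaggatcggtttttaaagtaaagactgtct
Tnfrsf9: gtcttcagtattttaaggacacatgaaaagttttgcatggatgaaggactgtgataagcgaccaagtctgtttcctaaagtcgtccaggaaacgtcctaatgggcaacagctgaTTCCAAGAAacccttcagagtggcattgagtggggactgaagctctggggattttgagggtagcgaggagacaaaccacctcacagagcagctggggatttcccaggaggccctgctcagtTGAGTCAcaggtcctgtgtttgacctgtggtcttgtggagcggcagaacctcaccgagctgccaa
Il1r2: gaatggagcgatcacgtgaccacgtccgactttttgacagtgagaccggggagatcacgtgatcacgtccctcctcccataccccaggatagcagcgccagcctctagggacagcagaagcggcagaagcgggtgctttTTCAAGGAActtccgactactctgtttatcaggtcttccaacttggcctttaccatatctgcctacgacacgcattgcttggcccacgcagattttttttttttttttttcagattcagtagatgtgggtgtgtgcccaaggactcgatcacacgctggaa
Il4: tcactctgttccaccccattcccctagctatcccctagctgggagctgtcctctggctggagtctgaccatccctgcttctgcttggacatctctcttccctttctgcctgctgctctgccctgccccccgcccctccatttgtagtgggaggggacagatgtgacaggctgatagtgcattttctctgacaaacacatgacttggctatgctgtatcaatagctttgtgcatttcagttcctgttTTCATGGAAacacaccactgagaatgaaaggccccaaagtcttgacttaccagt
The STAT-type letters were in 3 and the AP-1-type letters in 3 of the 10 highest genes that had a promoter in the table, which held none for Socs2 and Fam213a. Of the 12 genes ranked lowest, 8 had a promoter, with the STAT-type letters in 1 and the AP-1-type letters in 0. Counted in the same way, as genes with a match in any of their promoters, the shares were 9.55% and 8.97% of all 27025 genes of the table. Per promoter they were 8.3% and 7.81% of 32851. These matches describe letters in a 300-base window and no binding was measured.

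Ccl1 (ENSMUSG00000020702.13) had the highest ratio in both libraries among the ranked genes, which had at least 50 CPM in 1 of the 4 sets. Il10, Il3 and Il13, below that level, had higher ratios in LatY136F and are given with their lists. In LatY136F it was at 196 CPM in Il2ra-positive and 18.1 CPM in matched cells (log2 ratio 3.43, 3.07 to 3.82). In CD45-KO it was at 439 CPM against 3.71 CPM (594 against 5 UMIs, 6.89, 5.66 to 8.52). The message was concentrated in few cells, 77 of 846 against 36 of 846 in LatY136F and 30 of 369 against 4 of 369 in CD45-KO. Single cells gave up to 164 and 195 of those UMIs. The size of the CD45-KO ratio moved with the cells compared. Without cells carrying other-lineage markers, with matched cells drawn anew, Ccl1 had 587 against 42 UMIs in CD45-KO (3.80, 3.35 to 4.29). In LatY136F it then had 1117 against 76 UMIs (3.88, 3.54 to 4.23).

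Receptor genes of activated T cells were also high. Tnfrsf8, which encodes the receptor CD30 of activated lymphocytes, was at 121 against 30.4 CPM in LatY136F (log2 ratio 1.99, 1.68 to 2.30) and 68.8 against 13.3 CPM in CD45-KO (2.37, 1.63 to 3.18). A Tnfrsf8 UMI was seen in 17.0% of Il2ra-positive and 7.92% of matched cells of LatY136F, and in 7.86% and 2.44% in CD45-KO. Tnfrsf9, a costimulatory receptor induced after activation, was at 50.7 against 15.1 CPM (1.75, 1.31 to 2.21) and at 72.5 against 19.3 CPM (1.91, 1.27 to 2.59). Il1r2, the decoy receptor for interleukin-1, was at 115 against 25.5 CPM (2.17, 1.85 to 2.51) and at 49.5 against 15.6 CPM (1.67, 0.94 to 2.45). Ctla4, the inhibitory receptor for CD80 and CD86, was at 86.3 against 40.8 CPM (1.08, 0.79 to 1.37) and at 99.1 against 36.3 CPM (1.45, 0.97 to 1.95). All 4 receptor genes were higher in Il2ra-positive cells of both libraries, and none of these intervals reached 0.

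The other genes of the ranking have varied roles. Mmp10, a matrix metalloproteinase, had log2 ratios of 1.83 (1.36 to 2.33) in LatY136F and 2.40 (1.54 to 3.38) in CD45-KO. Cdkn1a, the cell cycle inhibitor p21, had 1.44 (1.10 to 1.78) and 2.46 (1.81 to 3.17). Socs2, a STAT5-induced feedback inhibitor of cytokine signals, was at 50.7 against 19.7 CPM in LatY136F (1.36, 0.96 to 1.77) and 48.1 against 9.64 CPM in CD45-KO (2.32, 1.44 to 3.30). Hdc, the enzyme that makes histamine, was at 142 against 63.0 CPM (1.17, 0.95 to 1.40), with up to 63 UMIs in a cell, and at 146 against 15.6 CPM (3.23, 2.58 to 3.96). Markers of mast cells and basophils, which also use Hdc, summed to 3.83 against 6.30 CPM in LatY136F and 3.70 against 20.8 CPM in CD45-KO. Of the 7 genes of that list, 4 were at 0 in Il2ra-positive cells of LatY136F (Ms4a2, Fcer1a, Gata2 and Kit). In those of CD45-KO, 5 were at 0 (Cpa3, Fcer1a, Gata2, Kit and Cd200r3). In matched cells 2 were at 0 in each library, Ms4a2 and Fcer1a in LatY136F and Fcer1a and Gata2 in CD45-KO. Whether such cells gave part of the Hdc message was not tested. The chemokine receptor gene Ccr1 had ratios of 1.07 and 1.28, and Fam213a of 0.90 and 1.05, the latter with a UMI in 389 against 256 cells of LatY136F. Some of the 12 were closer to matched cells in part of the data. Among Il2ra-positive cells under 3000 UMIs, Socs2 (0.28) and Il4 (0.39) in LatY136F and Mmp10 (0.42), Fam213a (0.42) and Il4 (0.32) in CD45-KO stayed under 1.5-fold. So did Il4 in LatY136F (0.57) and Fam213a in CD45-KO (0.42) without cycling cells, and Ccr1 in LatY136F (0.55) in cells with at least 2 Il2ra UMIs.

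**Figure D2:**
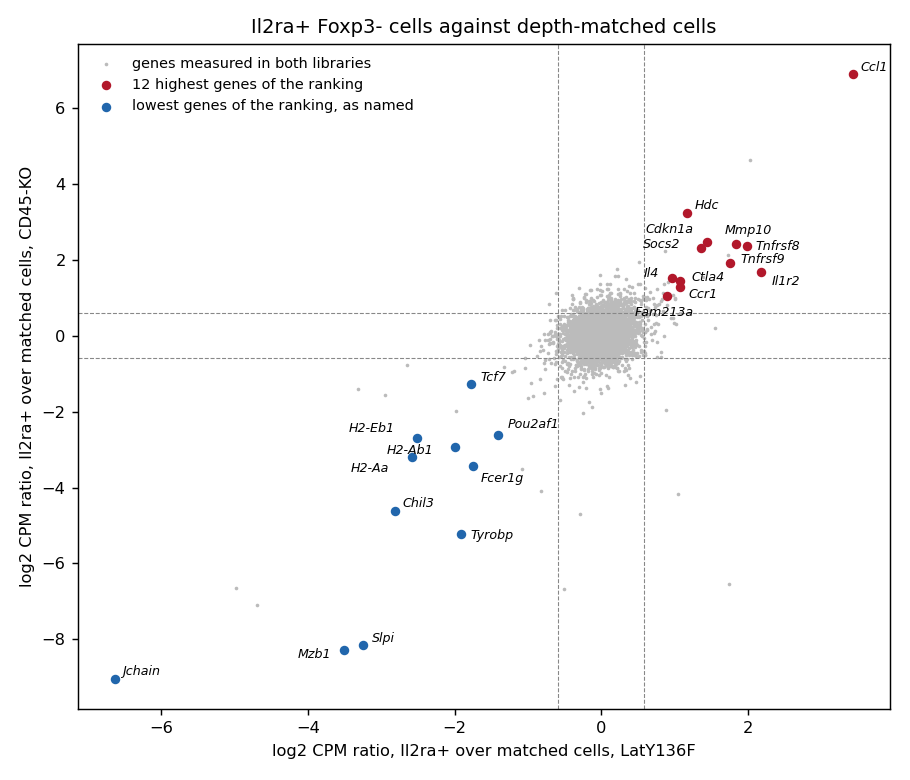
Each point is a gene with at least 50 UMIs over both sets in both libraries: the log2 ratio of CPM in Il2ra-positive over matched cells in LatY136F (x axis) and in CD45-KO (y axis), with dashed lines at 1.5-fold. Ccl1 lies at 3.43 and 6.89, and most genes lie within the dashed lines in both libraries.

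**Figure D3:**
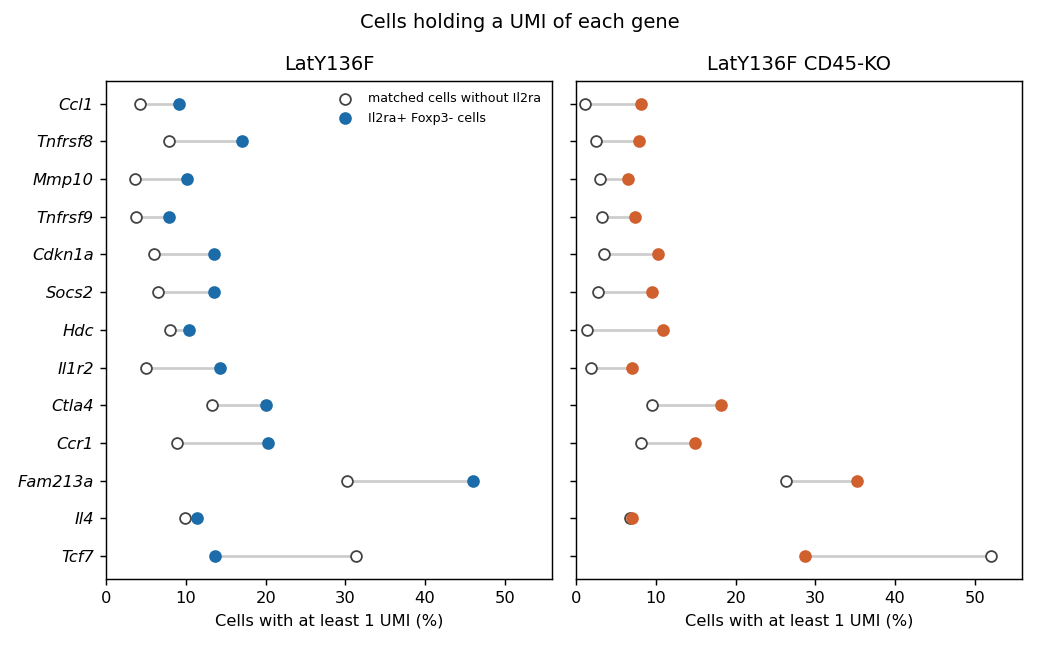
Percent of cells with at least 1 UMI of each named gene (x axis) in Il2ra-positive cells (filled points) and matched cells (open points), 1 panel per library; grey lines join both sets. In LatY136F Tnfrsf8 was seen in 17.0% of Il2ra-positive and 7.92% of matched cells, and Tcf7 in 13.6% against 31.3%.

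At the low end, Tcf7, a marker of naive and resting T cells, was lower in Il2ra-positive cells. Tcf7, encoding the transcription factor TCF-1, was at 43.8 against 150 CPM in LatY136F (log2 ratio -1.77, -2.04 to -1.52) and at 146 against 353 CPM in CD45-KO (-1.28, -1.52 to -1.03). A Tcf7 UMI was seen in 13.6% against 31.3% of cells in LatY136F and in 28.7% against 52.0% in CD45-KO. Of the 17 measured naive and quiescence genes, 0 were higher and 3 lower in LatY136F (median log2 ratio -0.28), and 0 were higher and 6 lower in CD45-KO (median -0.27). Over all genes measured the medians were 0.00 and 0.05.

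Another 10 of the 12 genes ranked lowest belong to plasma cells (Jchain, Mzb1, Pou2af1), to antigen-presenting cells (H2-Aa, H2-Eb1, H2-Ab1) or to myeloid and epithelial cells (Slpi, Chil3, Fcer1g, Tyrobp). Their UMIs came from few matched cells: the 594 Jchain UMIs of matched cells in LatY136F came from 6 cells, 386 of them from 1 cell, and the 1566 in CD45-KO came from 15 cells. Cells with any UMI of 10 marker genes of B, plasma, myeloid, mast or NK cells were 2.96% of Il2ra-positive and 5.08% of matched cells in LatY136F, and 4.07% and 10.8% in CD45-KO. Without such cells, in an analysis added after the data were seen, 818 and 350 pairs remained and 8 of the 12 highest but only 2 of the 12 lowest genes, Tcf7 among them, were shared with the ranking above. Of 8693 genes 233 were then higher (2.68%) and 179 lower (2.06%) in LatY136F, and of 6493 genes 289 were higher (4.45%) and 244 lower (3.76%) in CD45-KO. In CD45-KO, Tnfrsf9 was then at 1.06, Il1r2 at 1.07, Ctla4 at 0.83, Fam213a at 0.78 and Il4 at 0.78. Ccl1, Tnfrsf8 and Hdc also had smaller ratios there than with all cells, while Mmp10, Cdkn1a, Socs2 and Ccr1 had larger ones.

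The class II genes changed direction in that analysis. H2-Aa, which encodes the alpha chain of the class II molecule I-A, had log2 ratios of -2.58 in LatY136F and -3.20 in CD45-KO with all cells, and 2.25 and 1.65 without cells carrying other-lineage markers. H2-Ab1, its beta chain, went from -1.99 and -2.93 to 1.30 and 1.40, and H2-Eb1 from -2.51 and -2.69 to 1.93 and 2.11. Cd74, the invariant chain that accompanies class II molecules, had a UMI in 36.1% of Il2ra-positive and 23.5% of matched cells of LatY136F and in 27.1% and 20.1% in CD45-KO, all cells included. Its log2 ratios were -0.31 and -1.36 with all cells and 1.49 and 1.77 without cells carrying other-lineage markers. More Il2ra-positive than matched cells therefore had the Cd74 message even where its summed level was lower.

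The partner chains of the receptor differed little from matched cells in LatY136F. Il2rb, the beta chain, was at 333 against 283 CPM in LatY136F (log2 ratio 0.23, 0.11 to 0.36) and 288 against 195 CPM in CD45-KO (0.56, 0.34 to 0.80). Il2rg, the common gamma chain, had ratios of 0.02 (-0.04 to 0.08) and 0.18 (0.08 to 0.29). Il7r, the interleukin-7 receptor of resting T cells, was lower, at 666 against 854 CPM (-0.36, -0.43 to -0.28) and 978 against 1304 CPM (-0.41, -0.52 to -0.31). Il9r, the interleukin-9 receptor, was at 11.2 against 26.0 CPM (-1.21, -1.78 to -0.67) and 13.3 against 25.9 CPM (-0.96, -1.87 to -0.10, but 0.32 without cycling cells). The other measured receptors of the family, Il4ra at 0.27 and 0.13 and Il21r at -0.05 and 0.08, stayed within 1.5-fold. In the whole list of receptors and signalling parts, 0 of 12 genes were higher and 1 lower in LatY136F and 0 of 10 were higher and 1 lower in CD45-KO, Il9r in both.

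The ligand and the kinases did not follow the alpha chain. Il2 had 26 UMIs in 25 Il2ra-positive cells against 29 in 29 matched cells of LatY136F (log2 ratio -0.16, -0.98 to 0.66) and 10 against 5 UMIs in CD45-KO (1.00, -0.69 to 2.89), so no difference was detectable at this depth. Jak1 had ratios of -0.03 and -0.08, Jak3 of -0.03 and 0.20, Stat5a of 0.26 and 0.46, and Stat5b of -0.24 and 0.01. All of these intervals included 0.

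Targets of STAT5 and of cytokine signals moved in part. Of 19 measured, 2 were higher and 0 lower in LatY136F (median log2 ratio 0.15), and 5 were higher and 1 lower in CD45-KO (median 0.24). Gzmb, the cytotoxic protease granzyme B, was at 235 against 80.6 CPM in LatY136F (1.55, 1.35 to 1.74), with up to 111 UMIs in a cell, and at 38.4 against 33.4 CPM in CD45-KO (0.20, -0.40 to 0.81). The kinase gene Pim1 had ratios of 0.53 (0.42 to 0.63) and 0.22 (0.02 to 0.42), and Cish, a feedback inhibitor of STAT5, of 0.12 (-0.06 to 0.29) and 0.62 (0.27 to 0.97, but -0.11 without depth matching). In CD45-KO the survival gene Bcl2l1 was at 0.94, Myc at 0.70, Phlda1 at 0.69 and the feedback inhibitor Socs3 at -0.86. The direction of Myc in CD45-KO turned with the choice of matched cells, to -0.37 with 3 matched cells each and -0.046 without depth matching. The same 4 genes were at 0.19, 0.38, 0.32 and 0.33 in LatY136F. Without cells carrying other-lineage markers, Phlda1 was at 0.31 (-0.35 to 0.98) and Myc at 0.48 (-0.05 to 1.02) in CD45-KO, both under 1.5-fold. Bcl2l1 was then at 0.90, Cish at 0.70, Pim1 at 0.57 and Socs3 at -0.98 in CD45-KO. Socs2 was past 1.5-fold in both libraries.

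Part of the genes known from regulatory T cells were higher, with cells carrying a Foxp3 UMI left out of both sets. Of 16 measured, 6 were higher and 1 lower in LatY136F (median log2 ratio 0.45), and of 14, 7 were higher and 1 lower in CD45-KO (median 0.64). Besides Ctla4, Il1r2 and Tnfrsf9, Ebi3, a subunit of interleukin-35, had a ratio of 1.00 in both libraries (0.60 to 1.41 and 0.48 to 1.53). Tnfrsf4 (OX40) and Tnfrsf18 (GITR) were both at 0.45 in LatY136F and at 0.77 and 0.76 in CD45-KO. Il10, an anti-inflammatory cytokine, had 66 UMIs in 20 Il2ra-positive cells and 1 UMI in matched cells of LatY136F (6.04, 3.52 to 11.37), and 6 against 0 UMIs in CD45-KO. Ikzf2 (Helios), a marker of thymus-derived regulatory T cells, was at -0.73 (-1.19 to -0.29) in LatY136F, but 0.20 without cycling cells, and at -0.45 (-0.92 to 0.00) in CD45-KO. Itgae (CD103) was at -0.21 and -0.72.

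The 98 Foxp3-positive cells of LatY136F and the 29 of CD45-KO, each set against their own matched cells, are given side by side with the Il2ra-positive Foxp3-negative cells. Izumo1r (folate receptor 4) was at 1.44 (0.76 to 2.16) in Foxp3-positive and at 0.21 (0.04 to 0.37) in Il2ra-positive Foxp3-negative cells of LatY136F. In CD45-KO the order was the other way, at 0.49 (-0.79 to 1.82, on 14 against 10 UMIs) and 0.80. Itgae was at 0.61 (0.01 to 1.22) and -0.21 (-0.45 to 0.02) in LatY136F, and at 1.77 (0.27 to 3.56, on 17 against 5 UMIs) and -0.72 in CD45-KO. Ctla4 was at 1.30 and 1.08 in LatY136F and at 1.32 (on 5 against 2 UMIs) and 1.45 in CD45-KO. Il1r2 was at 2.08 and 2.17 in LatY136F, and had 0 UMIs in the Foxp3-positive cells of CD45-KO and in their matched cells. Whether the sets differ in any of these genes was not tested. Ccl1 had 3 against 3 UMIs in the Foxp3-positive cells and their matched cells of LatY136F, and 0 against 0 in CD45-KO.

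Among costimulatory genes of the TNF and CD28 families, 4 of 14 were higher and 1 lower in LatY136F (median log2 ratio 0.31), and 7 of 14 were higher and 0 lower in CD45-KO (median 0.60). This list shares genes with the regulatory T cell list, so the counts are not separate. Tnfrsf9 and Ctla4 were counted as higher in both lists in LatY136F, and Tnfrsf9, Ctla4, Tnfrsf4 and Tnfrsf18 in CD45-KO. Tnfsf8, the ligand of CD30, was at 176 against 154 CPM in LatY136F (0.19, 0.03 to 0.36) and 431 against 146 CPM in CD45-KO (1.56, 1.33 to 1.80). Tnfsf11 (RANK ligand) was at -0.22 (-0.54 to 0.09) and 1.11 (0.66 to 1.57). Cd28 was at 0.02 and 0.13, and Icos at 0.12 and 0.44. Cd27, lost on effector cells, was at -0.97 (-1.73 to -0.25) in LatY136F, but 0.32 in cells under 3000 UMIs, and at -0.24 in CD45-KO.

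Genes induced early by T cell receptor signals were not high as a group in LatY136F, where 0 of 20 were higher and 1 lower (median log2 ratio -0.03). In CD45-KO, 5 of 20 were higher and 2 lower (median 0.12). Egr2, an early growth response factor, was at 0.22 (-0.30 to 0.74) and 1.58 (0.81 to 2.41), and Batf, an AP-1 family factor of effector T cells, at 0.45 and 0.91. Without cells carrying other-lineage markers Egr2 was at 0.34 and 0.77, and Batf at 0.38 and 0.66. Jun was at -1.19 and -0.93, the latter 0.77 without cycling cells. Of the NF-kappaB genes, 0 of 15 were past 1.5-fold in LatY136F and 2 of 14, Nfkb2 and Relb, were higher in CD45-KO.

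Some cytokine messages lay largely in single cells with many UMIs, and others were spread at about 1 UMI per cell. Il4, the signature T helper 2 cytokine, was at 77.8 against 39.7 CPM in LatY136F (log2 ratio 0.97, 0.68 to 1.27) and 73.9 against 25.9 CPM in CD45-KO (1.51, 0.94 to 2.11). The number of cells with Il4 differed little, 96 against 83 and 26 against 25, and single Il2ra-positive cells gave up to 86 and 35 UMIs. Il13 had 98 UMIs in 7 cells against 5 UMIs in 4 cells of LatY136F, 58 of them in 1 cell, and Il3 had 99 UMIs in 2 cells, 98 of them in 1, against none in matched cells. Il6 had 83 UMIs in 68 cells and Csf2 24 UMIs in 20 cells, with at most 3 UMIs in a cell, against 96 UMIs in 79 and 18 UMIs in 16 matched cells of LatY136F. In CD45-KO Il6 had 21 UMIs in 19 Il2ra-positive cells against 4 UMIs in 4 matched cells. These were 5.15% (3.13 to 7.92%) and 1.08% (0.30 to 2.75%) of cells. Csf2 had 19 UMIs in 17 cells against 9 UMIs in 8 matched cells of CD45-KO. Il21 was at 1.38 (0.67 to 2.14) and 1.55 (0.64 to 2.54), in 25 against 12 and 19 against 9 cells. The T helper 2 regulator Gata3 was at -0.06 and 0.02, and Il1rl1, the interleukin-33 receptor ST2, at 0.00 and -0.17, so the level of these T helper 2 genes was close in both sets. Of the 15 and 10 T helper 2 genes measured, 5 and 3 were higher and 0 lower.

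List medians of proliferation and metabolism genes lay within 1.5-fold of matched cells in both libraries, and some were further above 0 in CD45-KO. Of 30 cell cycle genes, 0 were past 1.5-fold in LatY136F (median log2 ratio -0.17) and 2, Mcm3 and Tk1, were higher in CD45-KO (median 0.11). Median ratios were 0.08 and 0.29 for glycolysis, 0.07 and 0.07 for oxidative phosphorylation, and 0.01 and 0.11 for T cell receptor signalling parts. Ribosome biogenesis had medians of 0.09 and 0.34, with 0 of 18 and 0 of 17 genes past 1.5-fold. Amino acid transport and mTORC1 genes had medians of -0.07 and 0.35, with 0 of 15 and 2 of 12 higher and 0 lower. Cholesterol and fatty acid synthesis genes had 0.06 and 0.20, with 1 of 14 and 3 of 11 higher and 0 lower.

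The number of Il2ra UMIs in a cell was then used to grade the Il2ra-positive cells, each grade against its own matched cells. Cells of a higher grade were deeper: medians were 3065, 5532 and 9615 UMIs for cells with 1, at least 2 and at least 5 Il2ra UMIs in LatY136F and 2276, 3976 and 7941 in CD45-KO. The grade of at least 5 is contained in that of at least 2 and had only 63 and 23 matched pairs. Regulatory T cell genes had medians of 0.17, 0.52 and 1.23 over the 3 grades in LatY136F and 0.30, 0.78 and 1.40 in CD45-KO. Costimulatory genes, which share Tnfrsf9, Ctla4, Tnfrsf4 and Tnfrsf18 with that list, went from 0.12 over 0.50 to 0.61, and from 0.38 over 1.21 to 1.91. Naive genes went the other way, from -0.26 over -0.37 to -0.61 and from -0.18 over -0.66 to -1.59. The medians cover the genes with at least 50 UMIs, which for regulatory T cell genes were 14, 14 and 11 in LatY136F and 12, 13 and 6 in CD45-KO. All genes measured had medians between -0.01 and 0.07 in every grade. Cell cycle genes were at -0.02, -0.26 and -0.37 in LatY136F and at 0.38, -0.17 and -0.45 in CD45-KO. Ribosome biogenesis genes were at -0.07, 0.21 and 0.29 in LatY136F and at -0.05, 0.68 and 0.74 in CD45-KO. Amino acid transport and mTORC1 genes were at -0.13, -0.04 and 0.09 in LatY136F and at 0.11, 0.42 and 0.51 in CD45-KO.

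Part of the single genes showed the same order. Tnfrsf8 was seen in 10.1% of LatY136F cells with 1 Il2ra UMI (6.35% of their matched cells), 32.8% with at least 2 (14.0%) and 69.8% with at least 5 (33.3%). In CD45-KO these shares were 2.97% (1.12%), 21.8% (7.92%) and 43.5% (21.7%). Il1r2 had log2 ratios of 1.17, 2.90 and 3.10 in LatY136F, and Penk, which encodes the opioid peptide precursor proenkephalin, of 0.36 (-0.09 to 0.82), 2.81 and 3.40. Ctla4 had 0.61, 1.41 and 1.86. In LatY136F 5 of the 12 genes ranked highest had a lower ratio in the third grade than in the first. Ccl1 had 4.08, 3.78 and 3.02, Hdc 1.39, 1.24 and 0.58, Ccr1 1.29, 0.55 and 0.48, and Cdkn1a 1.29, 1.17 and 1.20. Il4 had 0.11, 1.47 and -0.51, the last on 22 against 31 UMIs. In CD45-KO the same 5 genes had a higher ratio in the third grade than in the first, on only 23 pairs. Ccl1 went from 3.29 to 6.85 and Hdc from 2.05 to 4.28, both with 0 UMIs in matched cells of the third grade. Ccr1 went from 0.90 to 1.98, Cdkn1a from 1.94 to 3.53, and Il4 from 0.77 to 3.77 (55 against 4 UMIs).

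**Figure D4:**
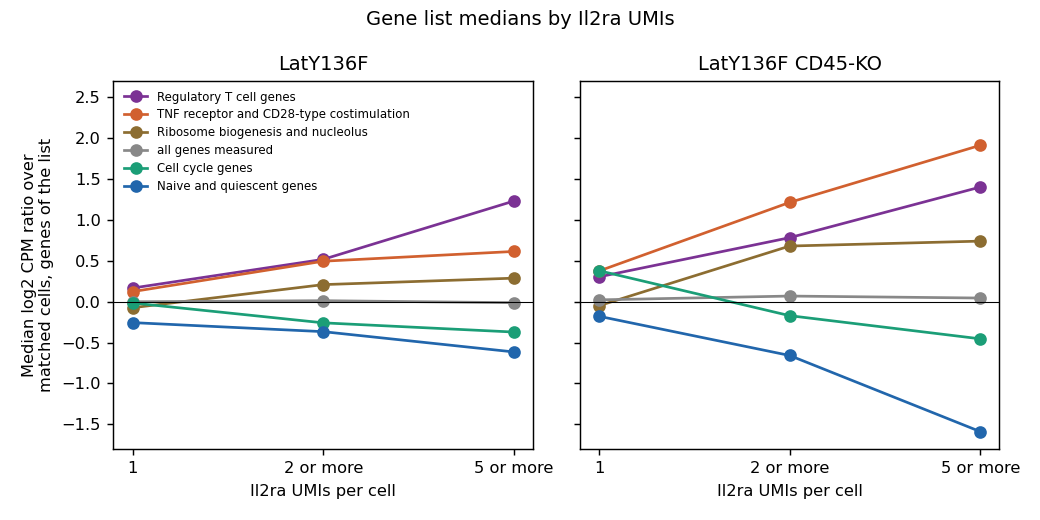
Median log2 ratio of each gene list (y axis) in cells with 1, at least 2 and at least 5 Il2ra UMIs (x axis), each against its own depth-matched cells, 1 panel per library. Regulatory T cell genes went from 0.17 to 1.23 and naive genes from -0.26 to -0.61 in LatY136F, while all genes stayed near 0.

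Ccl1 and Tnfrsf8 were set beside other genes cell by cell. The genes of this comparison were chosen after their values were seen, and cells with a UMI of the gene were paired with Il2ra-positive cells of the same depth without one. The 84 Il2ra-positive cells of LatY136F with a Ccl1 UMI had Hdc in 42.9% (32.1 to 54.1%) against 8.33% (3.42 to 16.4%) of their partners. They had Il4 in 28.6% against 8.33% and Tnfrsf9 in 27.4% against 11.9%, while Tnfrsf8 was seen in 17.9% against 26.2%. In CD45-KO the 30 cells with Ccl1 had Hdc in 43.3% against 6.67% and Tnfrsf9 in 46.7% against 6.67%. Il4 was seen there in 6 against 5 cells and Tnfrsf8 in 4 against 3 cells, so the gap in Il4 was small and that in Tnfrsf8 had the other direction than in LatY136F.

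Cells with Tnfrsf8 were compared in the same way. In LatY136F, 121 of 183 such cells found a partner, and they had Il1r2 in 43.8% (34.8 to 53.1%) against 17.4% (11.1 to 25.3%), Penk in 34.7% against 16.5% and Socs2 in 30.6% against 12.4%. Ccl1 was seen in 6.61% against 16.5% of them and Hdc in 6.61% against 19%. Mki67, a proliferation marker, was at 62.0% against 57.9%. In CD45-KO only 24 pairs were formed, with Il1r2 in 58.3% (36.6 to 77.9%) against 20.8% (7.13 to 42.2%), Penk in 54.2% against 45.8%, Socs2 in 29.2% against 8.33%, Ccl1 in 12.5% against 25.0%, and Hdc in 0 of 24, which by the same rule of 3 counts allows a share of up to 12.5%, against 16.7%.

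The last comparison set the Il2ra-positive cells of CD45-KO against those of LatY136F, with the same ratio in the matched cells beside it. Of 8455 genes measured, 584 were higher (6.91%) and 454 lower (5.37%) in CD45-KO. Among matched cells, 600 of 8211 were higher (7.31%) and 633 lower (7.71%). The Il2ra-positive cells of the 2 libraries differed in depth, with medians of 3548 and 2439.5 UMIs. All of them were used, also the 50 of LatY136F and the 3 of CD45-KO without a partner.

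Several genes were higher in CD45-KO in Il2ra-positive and matched cells alike. Tcf7 was at 41.8 CPM in LatY136F and 141 CPM in CD45-KO Il2ra-positive cells (log2 ratio 1.75, 1.46 to 2.05), with 1.24 (1.05 to 1.42) in matched cells. Itga4, the integrin alpha 4 chain, was at 226 and 640 CPM (1.5, 1.37 to 1.63; matched cells 1.12). Selenop, a selenium transport protein, was at 2.37 (matched cells 2.57), Slc17a6, a glutamate transporter, at 3.18 (4.49), Hs3st3b1 at 2.10 (1.32), Klrg1 at 1.34 (0.85), Btg1 at 1.25 (0.92) and Serpinb6b at 1.47 (0.79). Among the lowest, Camk2b was at -2.03 (-1.67), Gzmb at -1.60 (-1.27), Anxa2 at -1.36 (-1.72), Lgals3 at -1.26 (-0.86), Trat1 at -1.17 (-1.04), Focad at -1.46 (-1.55), Nrgn at -1.14 (-1.28) and Tnfrsf8 at -1.17 (-1.19). These 16 genes had the same sign in both sets.

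Other genes had a ratio nearer 0 in the matched cells used here and a larger one in Il2ra-positive cells. That difference was not tested. Tnfsf8 was at 161 CPM in LatY136F and 412 CPM in CD45-KO (log2 ratio 1.36, 1.20 to 1.52) but at -0.07 (-0.32 to 0.16) in matched cells. Tnfsf11 was at 1.25 (0.92 to 1.59) against -0.13 (-0.58 to 0.29), and Egr2 at 1.05 (0.54 to 1.55) against -0.22 (-1.05 to 0.54). Akr1c18, a steroid-metabolising enzyme, was at 45.7 and 128 CPM (1.48, 1.18 to 1.78; matched cells -0.13), and at 0.33 with Il2ra-positive cells of the 2 libraries matched on depth. The matched-cell values moved with the cells drawn. Without cells carrying other-lineage markers, Akr1c18 was at 43.7 CPM in matched cells of LatY136F and 166 CPM in those of CD45-KO. Its values in Il2ra-positive cells were then 38.1 and 139 CPM. Tnfsf8 was at 142 and 208 CPM in those matched cells, beside 176 and 460 CPM in Il2ra-positive cells. Egr2 was at 16.5 and 25.5 CPM, beside 20.8 and 43.6 CPM. Gzma, granzyme A, was at 133 CPM (584 UMIs) in LatY136F and 3.53 CPM (5 UMIs) in CD45-KO (-5.24, -6.87 to -4.01), against -0.17 (-0.53 to 0.18) in matched cells. Of its UMIs in matched pairs of LatY136F, 561 came from 139 Il2ra-positive cells, and the 89 in matched cells of CD45-KO came from 8 cells, 44 of them from 1. A Gzma UMI was seen in 13.0% (10.8 to 15.5%) of matched cells of LatY136F and 2.17% (0.94 to 4.23%) of those of CD45-KO. In Il2ra-positive cells of these pairs the shares were 16.4% and 1.4%, so fewer cells had Gzma in CD45-KO in both sets. Without cells carrying other-lineage markers Gzma was at 76.3 and 43.7 CPM in matched cells, beside 156 and 4.11 CPM. NK cell markers, a list that includes Gzma, summed to 166 CPM in those Il2ra-positive cells of LatY136F and 40.7 CPM in those of CD45-KO, with Ncr1, Klra8, Klra4 and Klre1 at 0 in both. Socs3 was at -1.42 (-2.01 to -0.88) against -0.36 (-0.81 to 0.08).

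Early receptor-induced genes were higher in CD45-KO for 14 of 21 measured and lower for 1 in Il2ra-positive cells (median log2 ratio 0.67), against 5 higher and 1 lower of 20 in matched cells (median 0.20). A difference of the 2 ratios was taken per gene with only those Il2ra-positive cells that had a partner, unlike the ratios printed here. Its median was 0.29, and over all genes it was 0.05. Egr1 was at 243 and 458 CPM (0.91, 0.77 to 1.06; matched cells 0.49, 0.35 to 0.63), Egr3 at 0.93 (0.22), Fosb at 1.12 (1.31) and Jun at 1.95 (1.68). The one lower gene was Irf4, at -0.70 (-0.42).

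Follicular helper genes were higher for 7 of 13 and lower for 0 in Il2ra-positive cells (median log2 ratio 0.67), against 2 higher and 2 lower in matched cells (median 0.14). The difference, again taken with only those Il2ra-positive cells that had a partner, was above 0 for 11 of 12 genes, with a median of 0.55. Cd200 was at 1.31 (0.97 to 1.64; matched cells 0.47), Izumo1r at 0.79 (0.61 to 0.97; matched cells 0.14), and Sostdc1 at 2.0 (1.28 to 2.74; matched cells 0.09) on 30 and 39 UMIs. These matched-cell values also moved with the cells drawn. Without cells carrying other-lineage markers, Cd200 was at 32.1 CPM in matched cells of LatY136F and 64.3 CPM in those of CD45-KO. Sostdc1 was at 41.9 and 89.8 CPM there, so both genes were higher in CD45-KO in those matched cells too. In Il2ra-positive cells Cd200 was then at 38.7 and 98.6 CPM, and Sostdc1 at 4.62 and 31.2 CPM. Naive genes were higher for 6 of 16 in Il2ra-positive cells and 9 of 17 in matched cells. Receptor chains differed less: Il2rb was at -0.17 (-0.33 to -0.02; matched cells -0.54) and Il2rg at 0.05 (-0.03 to 0.13; matched cells -0.19), while Il7r was at 0.70 (0.61). Ccl1 was at 0.65 (0.51 to 0.80), and at -2.82 without cycling cells. Matched cells had the other direction, at 18.1 CPM in LatY136F and 3.71 CPM in CD45-KO. Among Il2ra-positive cells with a partner Ccl1 was at 196 and 439 CPM, with up to 164 and 195 UMIs in a single cell.

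**Figure D5:**
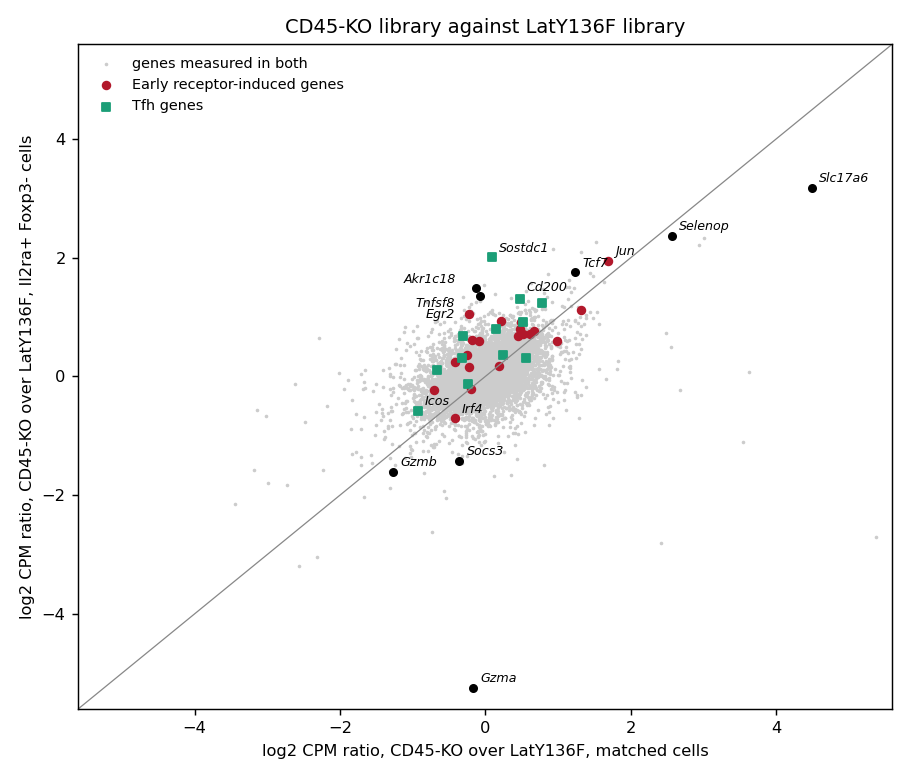
Each point is a gene: the log2 ratio of CPM in CD45-KO over LatY136F in matched cells (x axis) and in Il2ra-positive cells (y axis), with the line of equal ratios and with early receptor-induced and follicular helper genes in colour. Tnfsf8 lies at -0.07 and 1.36, Gzma at -0.17 and -5.24, and Tcf7 near the line at 1.24 and 1.75.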

How the data were processed

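Cells of 2 libraries, 1 per genotype, were analysed. The values deposited by the authors are raw counts: error-corrected UMIs, 1 row per cell, not normalized. The file headers name the BD WTA Multiplex Rhapsody Analysis Pipeline 1.9.1 with GRCm38 and GENCODE M19 as their source, and were followed where the design text (pipeline 2.0, Seurat 4.04) or the submitters' processing notes (GRCm39) differ. Gene locations came from GENCODE M21 (GRCm38). A CD4 stain is named in the design text without saying if it was gated on. A gene listed in only 1 file was given a count of 0 in the other.

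Cells needed 200 genes or more and a mitochondrial share of 25% or less, which removed 28 LatY136F and 11 CD45-KO cells. No doublet caller was run. Matching was 1 to 1 without replacement, on total UMIs without Il2ra, within 10%, in seeded random order. The 95% intervals of ratios are exact conditional binomial ones, and those of shares are Clopper-Pearson intervals. A count of 0 was set to 3 counts for a ratio. Computation used Python 3.11.15, numpy 2.4.6, scipy 1.17.1, pandas 2.3.3 and matplotlib 3.10.9, and was tested on simulated data. Named genes had at least 50 CPM in 1 of the 4 sets and the same sign in both libraries, and were ranked by the interval bound nearest 0, the 12 highest and 12 lowest; between libraries the 10 highest and 10 lowest were taken. The ranking left out antigen receptor segments, immunoglobulins, haemoglobins, genes encoded in mitochondria, ribosomal protein genes and genes without a name. Of the sex chromosomes, only Xist, Tsix, Ddx3y, Eif2s3y, Kdm5d and Uty were left out by name. From each gene list up to 4 members with the largest ratio were named, and further list members were chosen after their values were seen. The members, the 23 functional and 9 marker lists and the tests were chosen with earlier results of these data known. Alternatives changed the matching, cell filters, thresholds, weighting and scaling. Some genes that these rules name are not reported here.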

Additional observations from a re-analysis of the deposited data

Results flagged for a closer look

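The ratio of Il2ra-positive over matched cells had opposite signs in the 2 libraries for 4 genes, each at least 1.5-fold and with no counting interval reaching 0; the difference between libraries was not tested. Gzma, granzyme A, was at 1.05 on the log2 scale in LatY136F (561 against 271 UMIs) and at -4.16 in CD45-KO (5 against 89 UMIs, 44 of the latter in 1 cell). Cenpj, a centriole gene, was at -0.62 (71 against 109 UMIs) and 1.13 (46 against 21 UMIs), the latter -0.46 in cells with 2 or more Il2ra UMIs. Ifitm3, an interferon-induced membrane protein, was at 0.88 (94 against 51 UMIs) and -1.96 (31 against 120 UMIs). The opposite signs of Ifitm3 ended without cells carrying other-lineage markers, where CD45-KO was at 2.0, and without depth matching, where it was at 0.26. Lyz2, the lysozyme of myeloid cells, was at 1.75 (121 against 36 UMIs, 119 of the 121 in 1 cell) and -6.53 (6 against 554 UMIs, 185 of the 554 in 1 cell). Without the top cell of each set Lyz2 was at -1.81 in LatY136F, so its signs were no longer opposite.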

How the results depend on the processing

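No paired analysis was possible because each genotype has 1 library and no replicate numbers. Fewer UMIs per gene widen every ratio, and most counts of genes past 1.5-fold depend on that filter.

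Genes higher and lower than matched cells numbered 437 and 469 in LatY136F and 781 and 668 in CD45-KO with at least 20 UMIs per gene, 51 and 37 and 61 and 39 with at least 200, and 2324 and 2806 and 2507 and 2660 with no filter. Without depth matching they were 1159 and 1111 in LatY136F and 1387 and 1256 in CD45-KO. In CD45-KO they were 220 and 177 without cycling cells and 140 and 120 for Il2ra-positive cells under 3000 UMIs, where fewer cells were compared, and 455 were lower with 3 matched cells each. Between libraries, 937 genes were higher and 705 lower with at least 20 UMIs, 158 and 137 with at least 200, 4960 and 1095 with no filter, and 820 were lower with cells weighted equally. The share of Il2ra-positive cells was 2.53% and 1.38% thinned to 1000 UMIs, 7.49% and 3.51% at a mitochondrial share of at most 10%, and 2.41% and 0.815% at 2 or more Il2ra UMIs.

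Log2 ratios over matched cells that changed sign, the cause of which was not tested, were these. In LatY136F without depth matching Slpi was at 0.16, H2-Aa at 0.92, H2-Eb1 at 0.82, H2-Ab1 at 0.95 and Pou2af1 at 0.30. Pou2af1 was at 0.46 at a mitochondrial share of at most 10%. Without cells carrying other-lineage markers Slpi was at 1.26, H2-Aa at 2.25, H2-Eb1 at 1.93 and H2-Ab1 at 1.30. Lyz2 was at -1.33 with 2 or more Il2ra UMIs and at -1.81 without the top cell of each set. Without cycling cells Ikzf2 was at 0.20 and Slpi at 0.58, and under 3000 UMIs Cd27 was at 0.32, Penk at -1.42 (0.87 with all cells) and Pou2af1 at 1.00. In CD45-KO Myc was at -0.37 with 3 matched cells each, and without depth matching Cish was at -0.11, Myc at -0.046 and Ifitm3 at 0.26. Without cells carrying other-lineage markers Ifitm3 was at 2.0, Slpi at 1.00, H2-Aa at 1.65, H2-Eb1 at 2.11 and H2-Ab1 at 1.40. Cenpj was at -0.46 with 2 or more Il2ra UMIs. Without cycling cells Il9r was at 0.32, Jun at 0.77 and Pou2af1 at 1.32, and under 3000 UMIs Jun was at 1.25. Between libraries Ccl1 was at -2.82 without cycling cells. The settings for single cells, cycling cells and depth under or from 3000 UMIs were chosen after seeing the data. Besides the values above, 2733 single-gene values and 110 counts, shares and list medians kept their direction and size, and 550 single-gene values kept their sign with another size.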

Other observations

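Gene groups not described above for Il2ra-positive against matched cells varied. Over all genes measured, 2.82% were higher and 2.48% lower in LatY136F, and 5.85% and 4.26% in CD45-KO. Apoptosis and BCL2 family genes were higher for 1 of 17 in LatY136F and 5 of 13 in CD45-KO, and lower for 0. Th1 and cytotoxic genes were higher for 3 and lower for 2 of 10, and higher for 2 and lower for 2 of 7. Follicular helper genes were higher for 1 and lower for 4 of 13, and higher for 3 and lower for 1 of 12. Interferon response genes were higher for 0 and lower for 1 of 17 in LatY136F (median log2 ratio 0.08), and higher for 0 and lower for 3 of 14 in CD45-KO (median -0.01). Of the inhibitory receptors, 2 were higher and 3 lower of 12 in LatY136F (median -0.05), and 3 of 10, Ctla4, Lag3 and Cd200r1, were higher in CD45-KO (median 0.12).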
